A study of Mus musculus with 16 samples.

Results

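The genes described here are the 10 regulators that open or close the G1 checkpoint: the kinases Cdk4 and Cdk6, their partners cyclin D1, D2 and D3 (Ccnd1, Ccnd2, Ccnd3), the Cip/Kip inhibitors p21 and p27 (Cdkn1a, Cdkn1b) and the INK4 inhibitors Cdkn2a, Cdkn2c and Cdkn2d. They were listed by symbol and looked up among the 50686 genes of the count tables, where all 10 were found. RNA came from 8 mouse BCR-ABL1p185+ pro-B cell lines of the C57BL/6N strain, which carry the fusion kinase of human B-cell leukaemia. Of these, 4 were Cdk8fl/fl (called wildtype by the submitters) and 4 were Cdk8Δ/Δ Vav-Cre (called Cdk8 KO), in which the Vav promoter drives Cre in blood-forming cells. Each line was grown for 48 h with 0.01% DMSO or with 1 µM Senexin B, an inhibitor of the kinases CDK8 and CDK19. The result is 16 libraries in 4 groups of 4, and the number on a library (line 1 to line 4 of a genotype) names its line. The lines were derived individually, and a line is a single culture per condition. In fits without a block the p-values measure the spread between lines within a group. Where such a fit holds both libraries of a line, it treats them as independent. In Senexin B fits with the line as a block (a term for each line), the p-values measure the spread of the change within lines.

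D-type cyclins bind CDK4 and CDK6, and the complex phosphorylates the retinoblastoma protein and its relatives, which frees E2F factors to transcribe the genes of DNA replication. INK4 proteins bind CDK4 and CDK6 directly and keep cyclins off. The Cip/Kip proteins p21 and p27 inhibit cyclin-CDK2 complexes and also help to assemble cyclin D with its kinases. In B-lymphoid cells cyclin D2 and D3 are the usual D cyclins, and CDK6 is the member best known for a role in BCR-ABL1 leukaemia. The mouse Cdkn2a locus encodes 2 unrelated proteins from separate first exons, p16Ink4a and p19Arf, of which the second stabilises p53.

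Library totals lay between 13145876 and 18349425 counted reads. Levels are given as CPM, the count of a gene scaled to a common library size after edgeR's TMM normalisation, and fold changes as log2 of Cdk8Δ/Δ Vav-Cre over Cdk8fl/fl or of Senexin B over DMSO. Cdk8 RNA, which checks the genotype labels, was 61.8 to 68.7 CPM in Cdk8fl/fl lines with DMSO and 35.3 to 52.1 CPM in Cdk8Δ/Δ Vav-Cre lines with DMSO. With Senexin B the ranges were 55.2 to 89.4 and 41.2 to 61.7 CPM and overlapped. Cdk8 RNA thus remained in every line labelled KO, and a count over the whole gene does not show which exons it holds. None of the 13 pro-B markers was under 1 CPM in every library, although Rag1, Rag2 and Dntt were as low as 1.22, 0.14 and 0.864 CPM in single libraries. Of the markers of other lineages, 6 of 6 T cell, 7 of 8 myeloid, 4 of 5 erythroid and 4 of 5 stromal genes were under 1 CPM in all 16 libraries, the myeloid exception being Lyz2 with at most 24.6 CPM. Both libraries of a line deviated together from their group means, with correlations between 0.748 and 0.87 across 14164 genes for 7 of the lines. Cdk8fl/fl line 1 stood apart with 0.586, and its DMSO library was the only one of the 16 whose file header named a different annotation folder. The gene positions, strands and lengths listed with the counts were identical in all 16 libraries. Where leaving out Cdk8fl/fl line 1 moved a member across an unadjusted p of 0.05, the value without it is given. The part of this line in the results beyond that was not tested.

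All 10 members were expressed in all 16 libraries, with between 87 counts (Ccnd1) and 34627 counts (Ccnd3) in a library. To set genes of unequal length side by side, levels were divided by the kilobases of all annotated exons of a gene, used or not. On this scale the order of median levels began with Cdk4 at 233, Ccnd3 at 142 and Cdkn2a at 107 CPM per kilobase. Ccnd2 at 64.5, Cdkn1a at 55.7 and Cdk6 at 37.0 CPM per kilobase followed. The low end was held by Cdkn2c at 17.8, Cdkn1b at 17.4, Cdkn2d at 16.1 and Ccnd1 at 6.03 CPM per kilobase. Neighbours in this order were not equally apart. Cdk4 exceeded Ccnd3, Ccnd3 exceeded Cdkn2a, Cdkn2a exceeded Ccnd2, Cdk6 exceeded Cdkn2c, and Cdkn2d exceeded Ccnd1 in 14 of 16 libraries each. Ccnd2 was above Cdkn1a, Cdkn2c above Cdkn1b and Cdkn1b above Cdkn2d in only 10 of 16 libraries, so those neighbours were not separated. Without division by length the order of medians differed, with Ccnd3 at 1249, Cdk4 at 757, Ccnd2 at 607, Cdk6 at 517 and Cdkn2a at 125 CPM.

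**Figure D1:**
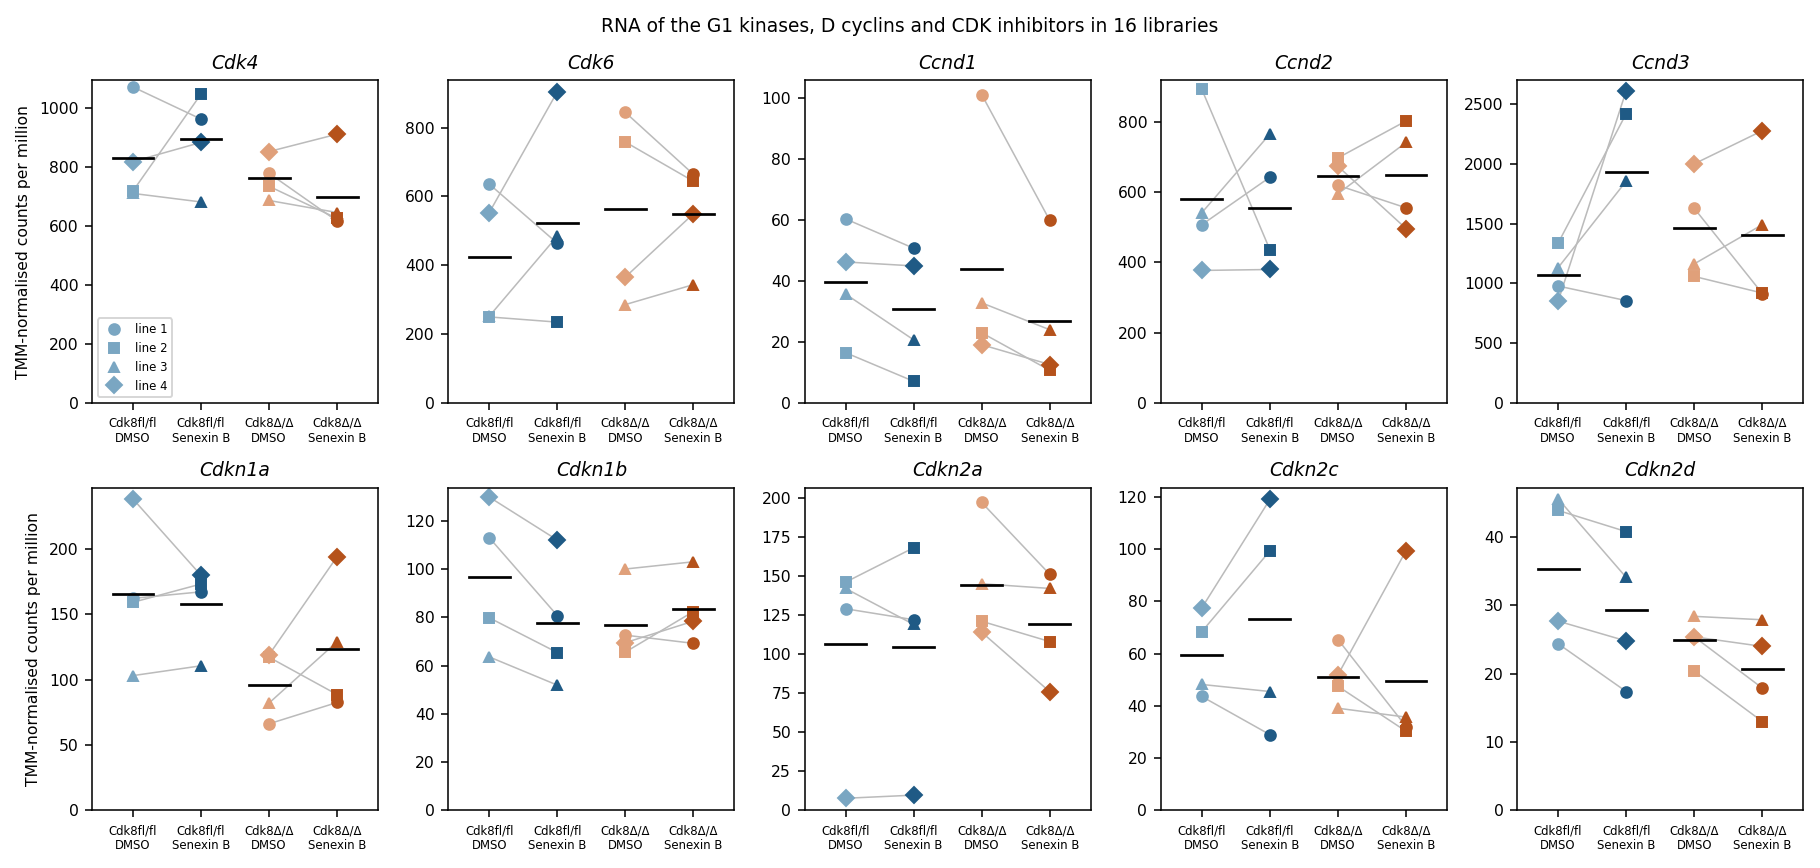
RNA level of each member (y axis, TMM-normalised CPM, starting at 0) in the 4 groups (x axis). Each point is 1 library, its shape names the line, grey segments join both libraries of a line and black bars are group means (n = 4). Cdkn2a in Cdk8fl/fl line 4 sits near the axis in both libraries, and Ccnd1 slopes down with Senexin B in all 8 lines.

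The largest share of each member's variation lay between lines of one genotype. For Ccnd2, Ccnd3 and Cdkn1a that share was below 50%. On the log2(CPM + 1) scale, the share of a member's sum of squares that separated lines within a genotype ran from 45.4% for Ccnd2 to 87.5% for Cdkn2a, beside a median of 63.1% over 14162 genes. Genotype took 33.7% for Cdkn1a, 25.1% for Cdkn2d and 21.4% for Cdk4, beside a median of 4.14% over all genes. Treatment took 10.3% for Ccnd1, 10.2% for Cdkn2d and 8.29% for Ccnd3, beside a median of 2.73%.

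Of the kinases, Cdk4 (chromosome 10, 127063534 to 127067920, plus strand) was the steadiest member, with a 1.74-fold range over the 16 libraries. In Cdk8fl/fl lines 1 to 4 it was 1072, 719, 711 and 819 CPM with DMSO and 963, 1048, 682 and 884 CPM with Senexin B. In Cdk8Δ/Δ Vav-Cre lines 1 to 4 it was 779, 735, 687 and 853 CPM with DMSO and 617, 626, 646 and 912 CPM with Senexin B. The 3 lowest values were those of Cdk8Δ/Δ Vav-Cre lines 1 to 3 with Senexin B. Cdk4 and Tspan31 overlap on opposite strands over 19.7% of the exonic length of Cdk4, and the counting did not use strand, so reads from those bases may be missing from its count. The sequence before its start site is shown because Cdk4 had the highest level per kilobase and its upstream window holds 4 copies of a motif that 6.02% of promoters carry at all. RefSeq sequence of GRCm38 was searched on both strands in at most 250 bases before each start. The windows of the p19Arf start and of the second Ccnd3 start, printed below, held 216 and 219 bases and stopped short of the start. The motifs were the GC box (GGGCGG), the E-box CACGTG, the cAMP response element (TGACGTCA) and 2 E2F motifs (TTTGGCGC and TTTCGCGC). The STAT motif (TTCNNNGAA) and the p53 half-site were searched too, the last by its published consensus. Of 32851 promoters in the table, 32.7% hold the GC box, 6.02% the E-box, 1.55% the cAMP response element, 0.654% an E2F motif, 7.02% the STAT motif and 7.13% an exact p53 half-site. The table matched 8 of the 10 members, and in the printed sequences capitals mark a match to one of these motifs. The Cdk4 window (chr10:127063285-127063533, plus strand) holds 4 E-boxes and 1 GC box.
Cdk4: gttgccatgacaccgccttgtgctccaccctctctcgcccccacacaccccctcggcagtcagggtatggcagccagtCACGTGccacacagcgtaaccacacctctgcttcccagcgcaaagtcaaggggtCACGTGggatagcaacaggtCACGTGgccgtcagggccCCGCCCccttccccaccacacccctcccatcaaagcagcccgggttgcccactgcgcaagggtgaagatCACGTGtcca

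Cdk6 (chromosome 5, 3341485 to 3531008, plus strand) varied over 3.84-fold, between 235 and 904 CPM. In Cdk8fl/fl lines 1 to 4 with DMSO it was 636, 250.1, 252 and 553 CPM, and with Senexin B 464, 235, 485 and 904 CPM. In Cdk8Δ/Δ Vav-Cre lines 1 to 4 it was 844, 758, 286 and 366 CPM with DMSO and 664, 644, 344 and 549.9 CPM with Senexin B. High and low lines occurred in both genotypes and the groups overlapped in every comparison. Per kilobase, the Cdk6 level was between 0.0522 and 0.251 of the Cdk4 level, highest in Cdk8Δ/Δ Vav-Cre lines 1 and 2 (0.239 to 0.251 in their 4 libraries) and nearly as high in Cdk8fl/fl line 4 with Senexin B (0.238). The 5 genes whose mean levels over the 8 lines followed Cdk6 most closely among 14161 genes were Ass1 (Pearson r = 0.982), Tnks (0.973), Nsun3 (0.97), Slc38a6 (0.96) and Cbr4 (0.959), of which Ass1, Slc38a6 and Cbr4 were at or below 10.0 CPM in every library. These are correlations over 8 points that share their libraries and are given as a description. Within the member list, Cdk6 ran against Cdkn2d (r = -0.819 over the 8 lines) and Cdk4 ran with Cdkn1a (r = 0.815).

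Of the D cyclins, Ccnd3 (chromosome 17, 47505051 to 47599691, plus strand) was the most abundant and Ccnd1 (chromosome 7, 144929931 to 144939925, minus strand) the least. Per kilobase, Ccnd3 made up 54.5% to 85.6% of the summed D cyclin level, Ccnd2 (chromosome 6, 127125162 to 127152193, minus strand) 11.6% to 44.3% and Ccnd1 0.468% to 7.87%. Ccnd1 shares 23.4% of its exonic length with an antisense gene and Ccnd2 7.9%. Ccnd2 ranged from 377 to 892 CPM. The lowest and the highest Ccnd2 values both came from Cdk8fl/fl lines with DMSO, line 4 and line 2. In Cdk8Δ/Δ Vav-Cre lines 1 to 4 Ccnd2 was 619, 697, 595 and 673 CPM with DMSO and 555, 802, 741 and 496 CPM with Senexin B, so the spread with DMSO was narrower there (SD 47.0 against 220.3 CPM, n = 4 each, the difference in spread was not tested).

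**Figure D2:**
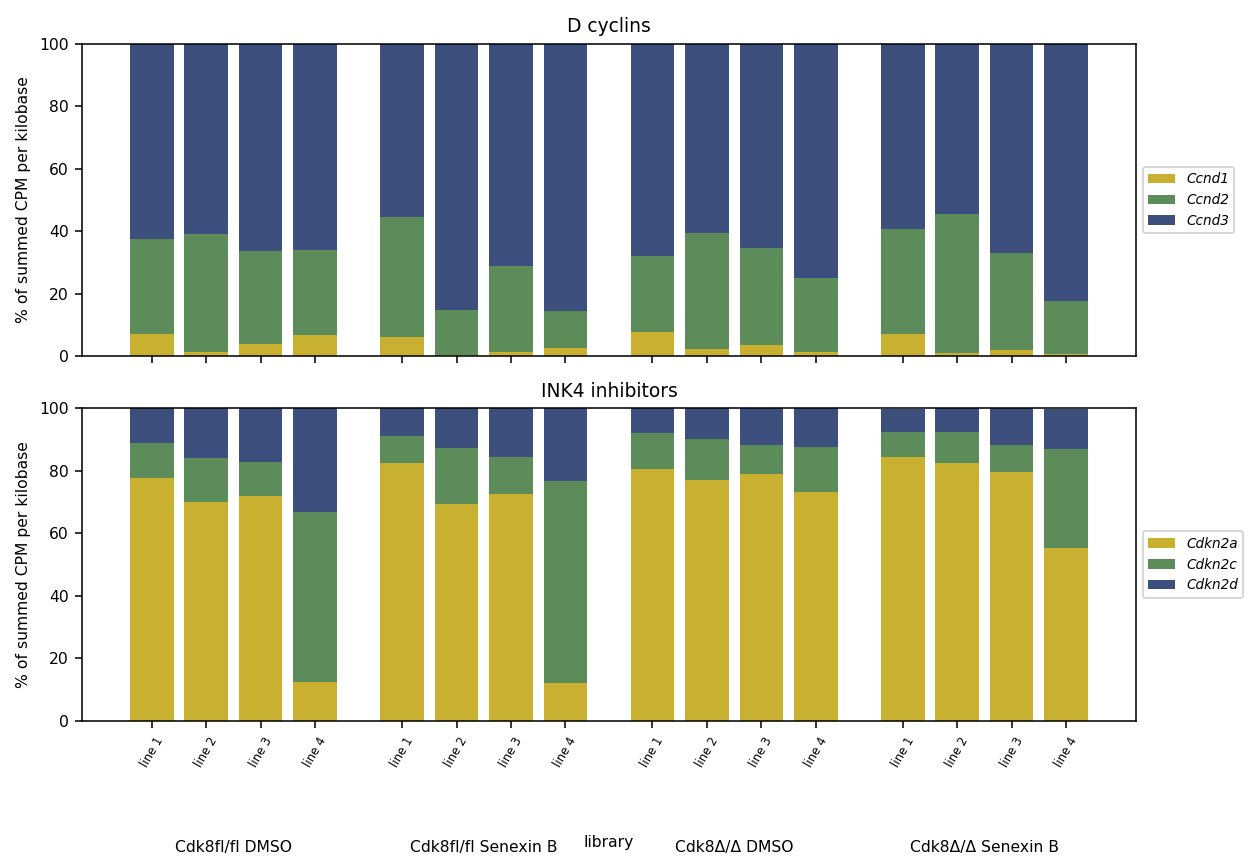
Share of each D cyclin (upper) and of each INK4 inhibitor (lower) in the summed level of its family, in percent of CPM per kilobase of exon (y axis), for 16 libraries (x axis, grouped by genotype and treatment). Ccnd3 held over 54% of the D cyclin sum in every library, and Cdkn2a held at least 55.3% of the INK4 sum except in Cdk8fl/fl line 4, where it held 12.5% and 12.2%.

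Of the Cip/Kip inhibitors, Cdkn1a (chromosome 17, 29090979 to 29100722, plus strand), the p53 target that encodes p21, exceeded Cdkn1b (chromosome 6, 134920401 to 134925513, plus strand) per kilobase by 1.68 to 5.42 times in all 16 libraries. Neither gene overlaps another. The upstream sequence of the first Cdkn1a start (chr17:29090729-29090978, plus strand) is shown because Cdkn1a was the member with the smallest p between genotypes in DMSO. It holds 2 exact p53 half-sites, which begin 73 and 51 bases before this first start. A second annotated start lies inside the gene (window chr17:29093519-29093768, plus strand). Its window has 2 GC boxes and no p53 half-site, and the gene count does not separate the 2 starts.
Cdkn1a: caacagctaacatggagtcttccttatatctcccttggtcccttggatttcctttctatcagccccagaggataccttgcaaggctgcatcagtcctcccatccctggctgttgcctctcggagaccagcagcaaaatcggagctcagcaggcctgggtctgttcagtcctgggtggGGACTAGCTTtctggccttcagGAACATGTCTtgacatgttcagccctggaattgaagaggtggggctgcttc

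The INK4 genes were led by Cdkn2a (chromosome 4, 89274471 to 89294653, minus strand), which spanned 25.4-fold, the widest range of the 10 members. Cdkn2a in Cdk8fl/fl lines 1 to 4 was 129, 146, 142 and 7.77 CPM with DMSO and 122, 168, 119 and 9.78 CPM with Senexin B. In Cdk8Δ/Δ Vav-Cre lines 1 to 4 it was 197, 121, 145 and 114 CPM with DMSO and 151, 108, 142 and 75.9 CPM with Senexin B. The low value belonged to a single line and was present in both of its libraries. Line 4 of Cdk8fl/fl also had the highest DMSO values of Cdkn1a (238 CPM), Cdkn1b (129.8 CPM) and Cdkn2c (77.5 CPM) and the lowest of Ccnd2 and Ccnd3 (377 and 849 CPM). Among pairs of members, Cdkn2a and Ccnd2 ran most closely together (r = 0.873 over the 8 lines, a value that includes the low line). The gene most like Cdkn2a was the non-coding RNA Kantr (r = 0.976), which ranged from 0.21 to 199 CPM over the libraries. One gene count covers both Cdkn2a transcripts, so p16Ink4a and p19Arf RNA cannot be told apart. Their separate start regions are shown because either could carry the Cdkn2a count: the p19Arf window (chr4:89294654-89294869, minus strand) has 1 GC box and the p16Ink4a window (chr4:89282193-89282442, minus strand) has none of the motifs searched.
Cdkn2a, p19Arf start: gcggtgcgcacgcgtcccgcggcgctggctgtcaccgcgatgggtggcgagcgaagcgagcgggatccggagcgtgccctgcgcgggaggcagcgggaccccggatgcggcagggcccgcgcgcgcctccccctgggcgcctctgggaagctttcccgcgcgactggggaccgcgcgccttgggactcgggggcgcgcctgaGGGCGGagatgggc
Cdkn2a, p16Ink4a start: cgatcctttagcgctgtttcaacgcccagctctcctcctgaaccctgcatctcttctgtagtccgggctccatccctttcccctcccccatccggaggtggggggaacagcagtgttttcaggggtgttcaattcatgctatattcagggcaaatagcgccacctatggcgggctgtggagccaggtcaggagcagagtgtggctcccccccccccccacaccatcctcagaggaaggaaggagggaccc

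Cdkn2c (chromosome 4, 109660876 to 109667189, minus strand), which encodes p18Ink4c, spanned 4.09-fold. In Cdk8fl/fl lines 1 to 4 it was 43.6, 68.4, 48.2 and 77.5 CPM with DMSO and 29.0, 99.3, 45.5 and 119 CPM with Senexin B. In Cdk8Δ/Δ Vav-Cre lines 1 to 4 it was 65.4, 47.5, 39.1 and 51.9 CPM with DMSO and 32.1, 30.3, 35.7 and 99.4 CPM with Senexin B. With Senexin B the range widened in both genotypes while the means stayed within the spread. Its ends were lines 1 and 4 in Cdk8fl/fl and lines 2 and 4 in Cdk8Δ/Δ Vav-Cre. Line 2 was higher with Senexin B in Cdk8fl/fl and lower in Cdk8Δ/Δ Vav-Cre. Over the 8 lines Cdkn2c ran with Ccnd3 (r = 0.769).

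The first comparison asks which members depend on CDK8 protein, by Cdk8Δ/Δ Vav-Cre against Cdk8fl/fl lines in DMSO. None of the 10 members passed the limits (edgeR's quasi-likelihood test, adjusted p under 0.05 and more than 2-fold), where 1 of 13174 genes did (0.00759%). Of the members 5 were lower and 5 higher, with a median log2 fold change of 0.015 beside 0.0017 over all genes. Only Cdkn1a had an unadjusted p under 0.05 (1 of 10 members, 5.32% of all genes). Cdkn1a in Cdk8fl/fl lines 1 to 4 was 162, 159, 103 and 238 CPM, and in Cdk8Δ/Δ Vav-Cre lines 66.2, 117, 82.1 and 119 CPM. The groups overlapped through Cdk8fl/fl line 3. The log2 fold change of Cdkn1a was -0.78 (SE 0.28, unadjusted p = 0.0235, adjusted p = 0.897 from edgeR), and without Cdk8fl/fl line 4 it was -0.56 (unadjusted p = 0.0614 from edgeR). Without Cdk8Δ/Δ Vav-Cre line 1 or line 3 the unadjusted p of Cdkn1a was 0.0569 and 0.0601, and without Cdk8fl/fl line 3 the log2 fold change was -0.96 (unadjusted p = 0.00589 from edgeR). Over 15 alternative fits, which reuse the same lines and are not replicates, the unadjusted p of Cdkn1a was under 0.05 in 11. In the 1 fit that summed both treatments of each line it was 0.0671 (edgeR).

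Cdkn2d (chromosome 9, 21288410 to 21291407, minus strand), which encodes p19Ink4d, was 24.4, 43.9, 45.6 and 27.7 CPM in Cdk8fl/fl and 25.4, 20.4, 28.4 and 25.4 CPM in Cdk8Δ/Δ Vav-Cre lines with DMSO. Its log2 fold change of -0.51 (SE 0.23, adjusted p = 0.897 from edgeR) came from Cdk8fl/fl lines 2 and 3, which were above all other lines. Without Cdk8fl/fl line 1 or line 4 it was -0.65 and -0.62 (unadjusted p = 0.0166 and 0.0366 from edgeR). Ccnd3 was 978, 1336, 1131 and 849 CPM in Cdk8fl/fl and 1627, 1058, 1163 and 1999 CPM in Cdk8Δ/Δ Vav-Cre lines, a log2 fold change of 0.45 (SE 0.24, adjusted p = 0.904 from edgeR) with overlap, and 0.57 without Cdk8Δ/Δ Vav-Cre line 2 (unadjusted p = 0.0419 from edgeR). Ccnd2 differed by 0.16 (SE 0.24), and by 0.43 without Cdk8fl/fl line 2 (unadjusted p = 0.0298 from edgeR). Cdk6 differed by a log2 fold change of 0.42 (SE 0.45) and Cdk4 by -0.12 (SE 0.16). Cdkn2a differed by 0.44 (SE 0.69), and by 0.046 once Cdk8fl/fl line 4 was left out. Groups that do not overlap were found for 0 of 10 members in either direction, where 1.48% of all genes were higher and 1.66% lower in every Cdk8Δ/Δ Vav-Cre line.

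With Senexin B in both genotypes, again 0 of 10 members passed the limits (0% of 13010 genes) and none had an unadjusted p under 0.05 (1.55% of all genes). The members were lower in 6 cases and higher in 4, with a median log2 fold change of -0.27 beside -0.0036 over all genes. The largest differences were Cdkn2c at -0.57 (SE 0.54), Cdkn2d at -0.5 (SE 0.33) and Ccnd3 at -0.47 (SE 0.42) on the log2 scale. Cdkn1a, at -0.35 (SE 0.29), was 167, 173, 110.5 and 179.6 CPM in Cdk8fl/fl and 82.5, 88.5, 129 and 194 CPM in Cdk8Δ/Δ Vav-Cre lines. Here Cdk8Δ/Δ Vav-Cre line 4 was above all 4 Cdk8fl/fl lines. Without the Senexin B library of that line, the log2 fold change was -1.16 for Cdkn2c, -0.65 for Cdkn1a and -0.5 for Cdk4 (unadjusted p = 0.0422, 0.0303 and 0.0421, adjusted p = 1.0 each, from edgeR). No member had groups that do not overlap, where 0.546% of all genes were higher and 0.453% lower in every Cdk8Δ/Δ Vav-Cre line.

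**Figure D3:**
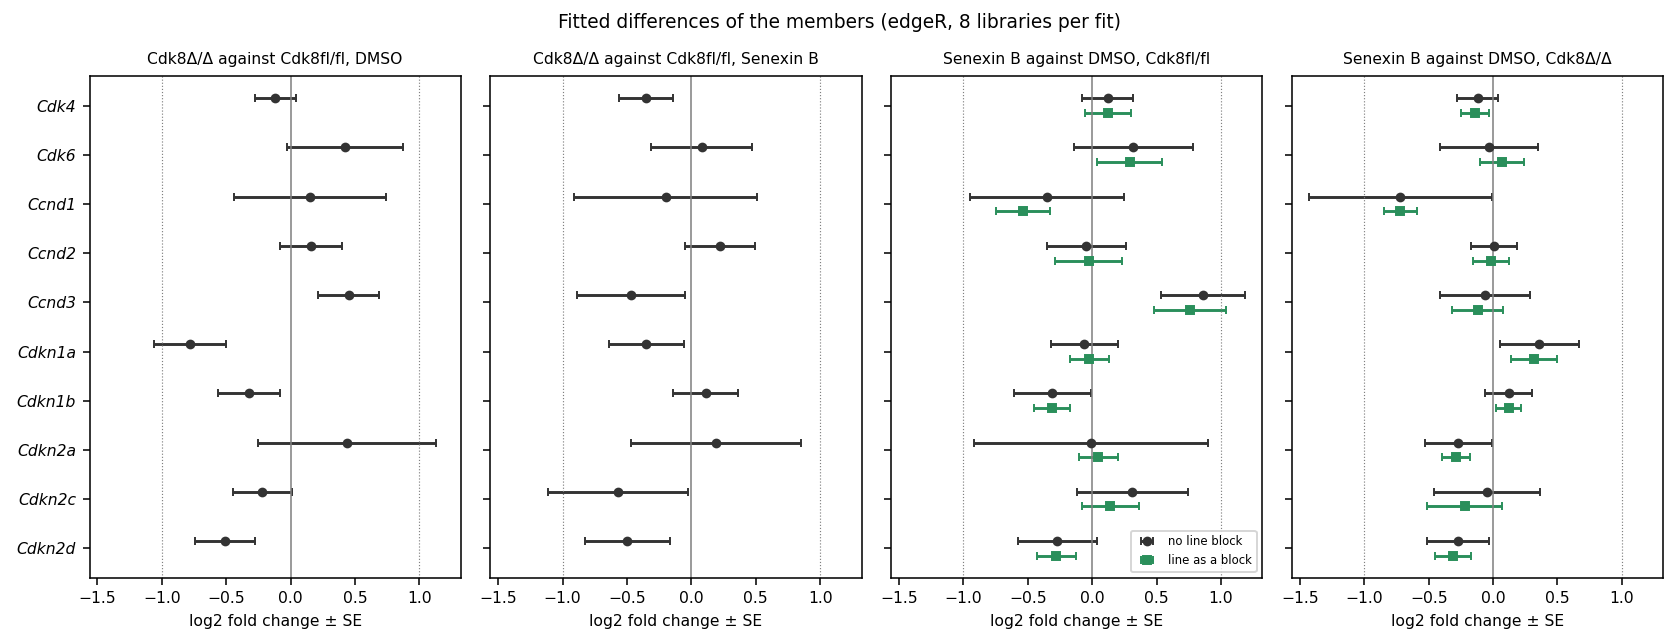
Fitted log2 fold change with its standard error (x axis) of each member (y axis) in the 4 comparisons of 2 groups, 8 libraries per fit. Circles are fits without a block, squares fits with the line as a block (shown for Senexin B, where libraries pair within lines) and dotted lines the fold limit. No member is past the limits, and the block shortens the error bar of Ccnd1 from 0.71 to 0.13 in Cdk8Δ/Δ Vav-Cre lines.

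Senexin B asks which members respond to inhibition of the kinase. In Cdk8fl/fl lines, 0 of 10 members passed the limits (0% of 12989 genes), also with the line as a block (0.346% of all genes). Ccnd3 had the largest fold change of the members. It went from 978 to 856 CPM in line 1, from 1336 to 2418 CPM in line 2, from 1131 to 1854 CPM in line 3 and from 849 to 2609.5 CPM in line 4. Lines 2 to 4 were higher and line 1 was lower, and with Senexin B line 1 lay within the DMSO range. Without a block the log2 fold change of Ccnd3 was 0.86 (SE 0.33, unadjusted p = 0.0289), and it was the only member with an unadjusted p under 0.05 (3.80% of all genes). With the line as a block it was 0.76 (SE 0.28, adjusted p = 0.379 from edgeR). Without line 1 the blocked fit gave Ccnd3 a log2 fold change of 1.06 (SE 0.23, adjusted p = 0.0189 from edgeR) and past the limits, and the calls over all genes went from 45 to 538. Without line 4 the blocked value was 0.46 (adjusted p = 0.947 from edgeR). Without a block, the unadjusted p of Ccnd3 was 0.0709, 0.0776 and 0.178 when line 2, 3 or 4 was left out. Without line 1 the blocked fit also gave Cdk6 a log2 fold change of 0.52 (unadjusted p = 0.0354, adjusted p = 0.19 from edgeR).

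Ccnd3 can start at 2 annotated sites, shown because Ccnd3 had the largest fold change of a member with Senexin B in these lines. The first (chr17:47504801-47505050, plus strand) has 2 GC boxes and the second, inside the gene (chr17:47593217-47593435, plus strand), has 1. A gene count does not tell which start was used.
Ccnd3, first start: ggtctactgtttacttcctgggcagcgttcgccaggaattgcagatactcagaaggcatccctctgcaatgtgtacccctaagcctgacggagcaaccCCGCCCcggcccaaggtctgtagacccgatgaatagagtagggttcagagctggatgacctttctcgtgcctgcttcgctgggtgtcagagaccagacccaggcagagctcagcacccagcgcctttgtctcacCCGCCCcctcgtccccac
Ccnd3, second start: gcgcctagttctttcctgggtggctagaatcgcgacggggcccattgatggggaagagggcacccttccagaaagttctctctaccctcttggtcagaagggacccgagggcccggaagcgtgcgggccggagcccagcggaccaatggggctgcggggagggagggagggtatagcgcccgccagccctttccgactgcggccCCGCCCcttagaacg

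The other members had smaller fold changes in Cdk8fl/fl lines. With the block only Ccnd1 and Ccnd3 had an unadjusted p under 0.05 (2 of 10 members, 10.3% of all genes). Ccnd1 went from 60.3 to 50.7, from 16.5 to 7.12, from 35.7 to 20.7 and from 46.2 to 44.9 CPM in lines 1 to 4, lower in all 4 (blocked log2 fold change -0.54, SE 0.21, adjusted p = 0.415 from edgeR). The log2 change within a line was uneven, -1.21 in line 2 and -0.043 in line 4. Cdkn1b, which encodes p27, went from 113 to 80.7, from 79.8 to 65.4, from 63.6 to 51.9 and from 129.8 to 112 CPM (blocked log2 fold change -0.31, SE 0.14, adjusted p = 0.485 from edgeR). Cdkn2d was also lower in all 4 lines, which makes 3 of 10 members lower in every line, where 9.46% of all genes were. Ccnd2 went from 507 to 642, from 892 to 436, from 541 to 765 and from 377 to 379.7 CPM in lines 1 to 4, opposite in direction to Ccnd3 in lines 1 and 2 and the same in lines 3 and 4. Groups overlapped for all members, where 0.847% of all genes were higher and 1.31% lower without overlap.

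**Figure D4:**
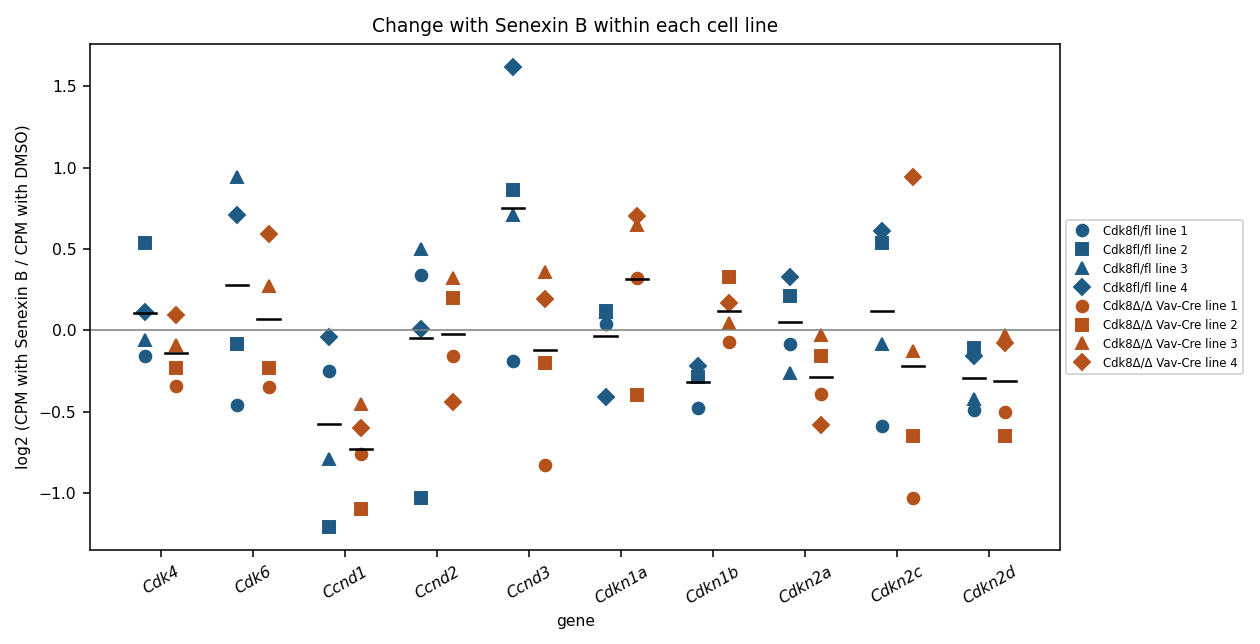
Change of each member with Senexin B within each line (y axis, log2 ratio of CPM with Senexin B to CPM with DMSO) for the 10 members (x axis). Points are lines, colours genotypes, shapes line numbers and black bars the means of 4 lines. Ccnd1 and Cdkn2d lie below 0 in 8 of 8 lines, and Ccnd3 lies between -0.83 and 1.62.

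In Cdk8Δ/Δ Vav-Cre lines, where the gene for one of the inhibitor's targets is deleted and CDK19 remains, 0 of 10 members passed the limits (0% of 13285 genes) and none with the line as a block (0.0527%). Without a block no member had an unadjusted p under 0.05 (1.83% of all genes), and with it Ccnd1 and Cdkn2a did (2 of 10 members, 10.3% of all genes). Ccnd1 went from 101 to 59.8, from 23.0 to 10.7, from 32.8 to 24.0 and from 19.1 to 12.6 CPM in lines 1 to 4 (blocked log2 fold change -0.72, SE 0.13, unadjusted p = 0.0007, adjusted p = 0.154 from edgeR). All 4 lines were lower. Cdkn2a, in the values given above, was lower in 4 of 4 lines (blocked log2 fold change -0.29, SE 0.11, adjusted p = 0.438 from edgeR), and so was Cdkn2d. The blocked unadjusted p of Cdkn2a was under 0.05 in 1 of 4 fits that left out a line. Without line 4, Cdkn2c had a log2 fold change of -0.62 (unadjusted p = 0.0284, adjusted p = 1.0 from edgeR) in place of -0.046. Thus 3 of 10 members were lower in every line, where 10.3% of all genes were. Ccnd3 went from 1627 to 915 and from 1058 to 919 CPM in lines 1 and 2 and from 1163 to 1491 and from 1999 to 2276 CPM in lines 3 and 4. Cdkn1b was 72.6, 65.6, 100.0 and 69.5 CPM with DMSO and 69.2, 82.4, 103 and 78.4 CPM with Senexin B, higher in 3 of 4 lines. Cdkn1a was higher in 3 of 4 lines too (blocked log2 fold change 0.32, SE 0.18, adjusted p = 0.593 from edgeR). Its blocked unadjusted p was under 0.05 in 1 of 4 fits that left out a line, where the adjusted p was at least 0.409. No member had groups without overlap, where 0.888% of all genes were higher and 0.768% lower.

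Over all 8 lines together, the one member difference past an adjusted p was that of Ccnd1. Without a block 0 of 10 members passed the limits (0% of 14164 genes) and none had an unadjusted p under 0.05 (4.86%). With the line as a block, still none passed both limits (0.946% of all genes), while Ccnd1 and Cdkn2d had an unadjusted p under 0.05 (2 of 10 members, 16.4% of all genes). Ccnd1 was lower in 8 of 8 lines, at 0.432 to 0.971 of the DMSO level, with a blocked log2 fold change of -0.64 (SE 0.13, adjusted p = 0.0229 from edgeR). It was 1 of 10 members with an adjusted p under 0.05 when no fold limit was set, where 2.63% of all genes were, and it was number 188 by p-value. When each line was left out in turn, the blocked log2 fold change of Ccnd1 stayed between -0.72 and -0.56, and its adjusted p was under 0.05 in 3 of the 8 fits and between 0.0506 and 0.0727 in the others. Cdkn2d was lower in 8 of 8 lines as well (blocked log2 fold change -0.3, SE 0.093, adjusted p = 0.122 from edgeR). Of all genes, 2.59% were lower in all 8 lines. The lines in which Cdkn2d was lower by the least were Cdk8Δ/Δ Vav-Cre lines 3 and 4, from 28.4 to 27.9 and from 25.4 to 24.0 CPM.

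Whether the response to Senexin B differed between genotypes was tested by the interaction over all 16 libraries. None of the 10 members passed the limits and none had an unadjusted p under 0.05 (0% and 0.473% of 14164 genes). With the line as a block, Ccnd3 and Cdkn1b had an unadjusted p under 0.05 (2 of 10 members, 3.24% of all genes). Their interaction terms were -0.87 (SE 0.38) for Ccnd3 and 0.44 (SE 0.15) for Cdkn1b on the log2 scale, both with an adjusted p of 0.991 from edgeR. Without a block the term of Ccnd3 was -0.91 (SE 0.5), and it was -1.12 without Cdk8fl/fl line 1 and -1.06 without Cdk8Δ/Δ Vav-Cre line 4 (unadjusted p = 0.0347 and 0.0455 from edgeR, adjusted p = 1.0 each). Cdkn1b was lower by 0.22 to 0.48 in the Cdk8fl/fl lines and ran from -0.07 to 0.33 in the Cdk8Δ/Δ Vav-Cre lines. The term of Ccnd1 was -0.18 (SE 0.26, adjusted p = 0.991 from edgeR), so a difference between genotypes in its response was not detected and, with that error, not excluded.

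Of the other genes of the pathway, listed by role, 72 of 75 were tested and 0 passed the limits in any comparison, with or without the block. In DMSO, Rb1, which encodes the retinoblastoma protein, was 232 ± 63.8 CPM in Cdk8fl/fl and 157 ± 27.6 CPM in Cdk8Δ/Δ Vav-Cre lines (SD, n = 4). Bmi1, a Polycomb protein that represses Cdkn2a, was 163 ± 34.8 and 100.0 ± 15.1 CPM in the same groups. Sesn2, a p53 target, was 112 ± 46.6 and 53.1 ± 23.7 CPM. These 3 of 72 (4.17%, beside 5.32% of all genes) were the pathway genes with an unadjusted p under 0.05 in DMSO, so the list held no more of them than all genes did. They had log2 fold changes of -0.56 (SE 0.23), -0.7 (SE 0.18) and -1.07 (SE 0.42) and an adjusted p of 0.897 each from edgeR. Of 11 tested p53 targets other than Cdkn1a, 8 were higher and 3 lower in Cdk8Δ/Δ Vav-Cre lines with DMSO, where the list had a median log2 fold change of 0.16.

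With Senexin B in both genotypes, all 15 S-phase and proliferation genes were lower in Cdk8Δ/Δ Vav-Cre lines, with -0.16 as the median log2 fold change beside -0.0036 over all genes. This is a count without a test. Pcna, the sliding clamp of DNA polymerase, had the only unadjusted p under 0.05 of the 72 (1.39%, beside 1.55% of all genes). Its log2 fold change was -0.34 (SE 0.14, adjusted p = 1.0 from edgeR). The summed level of the 15 genes was 5128 to 6791 CPM in Cdk8fl/fl lines and overlapped with 3790 to 6304 CPM in Cdk8Δ/Δ Vav-Cre lines, where line 1 had the 3790 CPM and the other 3 had 4981, 5365 and 6304 CPM. In Cdk8fl/fl lines, 12 of the 15 were higher with Senexin B, among them the replicative helicase subunits Mcm3 (log2 fold change 0.39, SE 0.17) and Mcm6 (0.45, SE 0.2), both with an adjusted p of 1.0 from edgeR. Together with Bmi1, which was lower (-0.49, SE 0.19), they were the 3 pathway genes with an unadjusted p under 0.05 there. That was 4.17% of 72, beside 3.80% of all genes. In Cdk8Δ/Δ Vav-Cre lines 9 of the 15 were lower with Senexin B (median log2 fold change -0.049). The part of these differences in the levels of the G1 regulators was not tested.

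Over all 8 lines with the line as a block, 6 pathway genes were higher and 6 lower at an unadjusted p under 0.05 (16.7% of 72, beside 16.4% of all genes), and 3 had an adjusted p under 0.05 without a fold limit (4.17%, beside 2.63% of all genes). The list was thus close to all genes in the first count. Ccne2, which encodes cyclin E2, was lower by 0.5 (SE 0.1, adjusted p = 0.025), E2f7, an E2F repressor, by 0.53 (SE 0.11, adjusted p = 0.0336) and Bmi1 by 0.4 (SE 0.092, adjusted p = 0.0433) on the log2 scale, all from edgeR. Ccne2 went from 55.8 ± 11.8 to 38.7 ± 8.9 CPM in Cdk8fl/fl and from 50.5 ± 12.3 to 35.7 ± 3.36 CPM in Cdk8Δ/Δ Vav-Cre lines (SD, n = 4). Skp2, the F-box protein that marks p27 for degradation, was lower by 0.31 (SE 0.1, adjusted p = 0.135 from edgeR). Ambra1, which directs the degradation of D cyclins, was higher by 0.23 (SE 0.083, adjusted p = 0.183 from edgeR). Of the genes listed by role, the fits in Cdk8Δ/Δ Vav-Cre lines alone without a block gave E2f7, Ccne2, Skp2 and Ambra1 an unadjusted p under 0.05 (5.56% of 72, beside 1.83% of all genes), each with an adjusted p of 1.0 from edgeR. With the line as a block, 4 were higher and 11 lower in those lines at an unadjusted p under 0.05. That was 20.8%, beside 10.3% of all genes, and 0 had an adjusted p under 0.05. The same blocked share in Cdk8fl/fl lines was 11.1%, beside 10.3% of all genes. For the blocked interaction it was 2.78%, beside 3.24% of all genes.

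**Figure D5:**
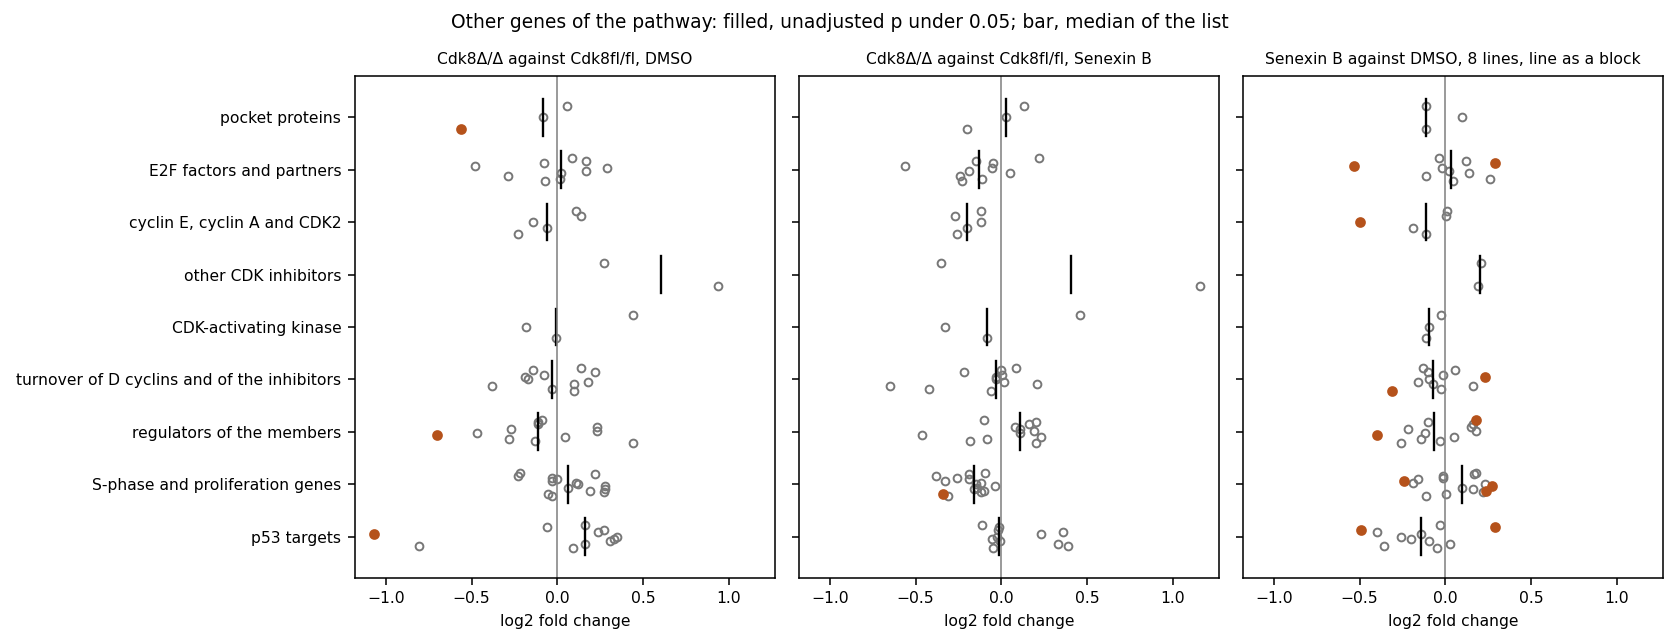
Log2 fold change (x axis) of the 72 tested pathway genes in their lists (y axis), for genotype in DMSO and with Senexin B without a block and for Senexin B over 8 lines with the line as a block. Each point is a gene, filled at an unadjusted p under 0.05, and a bar is the median of its list. The S-phase and proliferation genes lie below 0 in the middle panel with a median of -0.16.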

How the data were processed

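RNA of 16 libraries (SENSE mRNA-Seq, 50 bp single-end) was measured in 4 groups of 4. The deposited values are raw counts per gene: the authors used Trimmomatic for trimming, STAR for alignment and featureCounts 1.5.1 for counting on the GENCODE M13 annotation of GRCm38, with no strand option per the file headers. A read in bases shared by 2 genes is then left unassigned. Library totals were 13145876 to 18349425.

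Here the counts were normalised by TMM and tested in R 4.3.3 with edgeR 4.0.16 (filterByExpr, robust quasi-likelihood test, Benjamini-Hochberg adjustment over all genes tested). A call needed both an adjusted p below 0.05 and more than 2-fold difference either way. All 10 members passed the filter on low counts in each comparison. Libraries with the same number within a genotype deviated together (correlations 0.586 to 0.87 in all 8 pairs), so the numbers pair both libraries of a line. The fits without a block were the planned ones, and blocked values stand beside them where they matter.

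The alternatives were DESeq2 1.42.0, RLE size factors, no filter, at least 10 counts in every library, the block and all 16 libraries in one fit. Further ones were each line or library left out, no fold limit and, by genotype, both libraries of each line summed. That sum pools DMSO and Senexin B counts. The block without a fold limit was chosen after seeing the data. The calling was tested on simulated data with 200 changed genes. By genotype in DMSO without a block, 91% of log2 changes of 3 and 63% of those of 1.5 were called. For Senexin B in Cdk8fl/fl lines these were 89% and 45% without a block and 98% and 89% with it. Each run used the dispersions of its own fit, and only the blocked run had simulated shifts between lines. The gain with the block was thus set by the simulation and is no measure for these data. Changed genes were drawn from those above a minimum mean CPM. Unchanged genes called numbered 9, 7 and 10 in these runs. A member with a log2 change of 1.5 could thus go uncalled. The members, the pathway lists and the tests were chosen with earlier results of these data known. Named besides the members are Cdk8, the pathway genes with an unadjusted p under 0.05 in a comparison (at most 10 each) and the genes most like a member over 8 lines. Single lines were picked out after their values were seen.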

Additional observations from a re-analysis of the deposited data

Results flagged for a closer look

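Of 40 groups of 4 libraries (10 members in 4 groups), 4 held a library whose gap to its nearest neighbour passed Dixon's critical value as a share of the range of the group, which chance does in about 1 of 20 groups. Cdkn2a was 7.77 CPM in Cdk8fl/fl line 4 with DMSO (gap 0.878 of the range). Ccnd1 was 101 CPM in Cdk8Δ/Δ Vav-Cre line 1 with DMSO (0.834). With Senexin B, Cdk8Δ/Δ Vav-Cre line 4 was the highest of its group for Cdk4 at 912 CPM (0.901) and for Cdkn2c at 99.4 CPM (0.921). Cdkn2a and Ccnd1 had the same line at the same end with Senexin B (9.78 and 59.8 CPM).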

How the results depend on the processing

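The count of members past the limits stayed at 0 of 10 in all 6 comparisons under DESeq2, RLE size factors, both other filters on low counts, the replicate block and, without it, no fold limit. It was also 0 in the 4 comparisons of 2 groups with all 16 libraries in one fit. By genotype with both libraries of each line summed, DMSO and Senexin B together, it was 0 as well. The exceptions were Senexin B in Cdk8fl/fl lines without line 1 and with the replicate block, which called 1 member (Ccnd3, range over lines left out 0 to 1), and Senexin B over 8 lines with the replicate block and no fold limit, chosen after seeing the data, which called 1 (Ccnd1). Of 60 member differences, 38 kept their direction under every alternative and no reversed one was over 0.45 (log2) to begin with. With the replicate block, the log2 fold change took the other sign for Ccnd1 by genotype in DMSO (-0.026), Cdkn2a with Senexin B in Cdk8fl/fl lines (0.048), Cdk6 and Ccnd2 in Cdk8Δ/Δ Vav-Cre lines (0.068 and -0.018), Cdkn2c over 8 lines (-0.044) and the interaction of Cdkn2d (-0.019). Summed lines, which pool both treatments, gave -0.01 for Ccnd1 and -0.047 for Ccnd3 by genotype. Fitted apart, the Ccnd3 difference was 0.45 with DMSO and -0.47 with Senexin B. No filter gave -0.0057 for Ccnd2 with Senexin B in Cdk8Δ/Δ Vav-Cre lines, and at least 10 counts 0.00014 for Cdk4 over 8 lines. The cause was not tested. Across genotypes the replicate block joins libraries that share only a number, and it gave 0 calls there.

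With 1 library or line left out, the sign changed in 21 differences. By genotype in DMSO they ran from -0.19 to 0.028 (Cdk4), -0.66 to 0.42 (Ccnd1) and -0.0075 to 0.43 (Ccnd2). By genotype with Senexin B they ran from -0.16 to 0.48 (Cdk6), -0.95 to 0.15 (Ccnd1), -0.033 to 0.34 (Cdkn1b) and -0.19 to 0.51 (Cdkn2a). With Senexin B in Cdk8fl/fl lines they ran from -0.03 to 0.21 (Cdk4), -0.28 to 0.34 (Ccnd2), -0.13 to 0.086 (Cdkn1a), -0.14 to 0.15 (Cdkn2a) and -0.044 to 0.44 (Cdkn2c). In Cdk8Δ/Δ Vav-Cre lines they ran from -0.18 to 0.21 (Cdk6), -0.12 to 0.15 (Ccnd2), -0.27 to 0.15 (Ccnd3) and -0.62 to 0.25 (Cdkn2c). Over 8 lines they ran from -0.096 to 0.043 (Cdk4), -0.11 to 0.14 (Ccnd2) and -0.19 to 0.29 (Cdkn2c). The interaction ran from -0.32 to 0.29 (Ccnd2) and -0.096 to 0.093 (Cdkn2d). Without division by length the median Cdk6 to Cdk4 ratio was 0.598 in place of 0.139 and the median Cdkn1a to Cdkn1b ratio 1.66 in place of 3.4. The members had at least 87 counts in each library.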
